A study of Homo sapiens with 6 samples.

Results

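Lysophosphatidic acid (LPA) is a small signalling lipid with 1 fatty acid chain on a glycerol phosphate head, and the 10 genes described here encode enzymes that make it or break it down and receptors that respond to it. They are LIPH and ENPP2 (production), LPAR1, LPAR2, LPAR3, LPAR5 and LPAR6 (receptors), and PLPP1, PLPP2 and PLPP3 (degradation). They were selected on the measured difference of LIPH between the groups compared here, which was already known, and then by name for their roles in the same pathway, out of 60554 gene identifiers in each count file. All 10 were found, and 8 of them had enough reads to enter the fit over 18683 genes, while LPAR5 and LPAR6 did not.

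RNA was sequenced from 6 libraries of Daoy, an established medulloblastoma cell line of human cerebellar origin. In 3 libraries the cells overexpressed ZBTB7B with the substitution R363L in its zinc-finger domain (ZFmut), and in 3 they overexpressed wild-type ZBTB7B (WT), a zinc-finger transcription factor also known as ThPOK. The transgenes were delivered by lentivirus (multiplicity of infection 15, 72 hr) to both groups, which were then grown for 4 days in medium with 10% serum, so that every library carries a ZBTB7B transgene and the level in untransduced cells was not analysed here. The comparison asks which transcripts differ when the zinc fingers of ZBTB7B carry this substitution. The labels do not say whether the replicates were separate cultures, so the spread between them may be technical.

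Outside the cell, LPA is made mainly by autotaxin (ENPP2), which removes the head group of lysophosphatidylcholine, and at the plasma membrane by lipase H (LIPH), which cuts an acyl chain from phosphatidic acid. LPA then binds G protein-coupled receptors that act through Gi, Gq and G12/13 on cell growth, shape and movement, and serum is a rich source of LPA for cultured cells. Phospholipid phosphatases of the PLPP family end the signal by removing the phosphate. LIPH and LPAR6 are best known together from human hair growth, where loss of either causes hypotrichosis.

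Reads assigned to genes ranged from 22236214 to 102730428 per library, and the deepest was ZFmut replicate 3. ZBTB7B itself had 547 to 627 CPM (reads of a gene scaled to a fixed library total, with TMM-adjusted library sizes) in ZFmut libraries, against 863 to 951 CPM in WT libraries. Transgene reads and those of the cell's own gene are not separated in a gene count, so the amount of ZBTB7B transcript and the substitution cannot be told apart in these groups. A mixed list of cerebellar and hedgehog medulloblastoma markers held 9 genes, of which 8 were tested. Of these, edgeR called NES (log2 difference 0.45) and SFRP1 (0.21) higher and GLI1 (-0.34) and PTCH1 (-0.14) lower with ZFmut (50%, against 35.6% of all tested genes). ZIC1, ZIC2, GLI2 and VIM did not pass. All 8 had at least 8.40 CPM on average in each group, while ATOH1 had 7 reads in ZFmut libraries and 1 in WT libraries. The 11 markers of other cell types summed to 4.17 to 4.77 CPM in ZFmut libraries and 5.10 to 6.63 CPM in WT libraries, with PTPRC, the pan-leukocyte marker, at 6 reads in ZFmut libraries and 15 in WT libraries. Of these 11 genes 5 were tested, and edgeR called 2 higher and 1 lower with ZFmut (60%, against 35.6% of all tested genes). RBFOX3 and the epithelial marker EPCAM did not pass, with EPCAM at 0.388 CPM in ZFmut libraries and 0.438 CPM in WT libraries. The epithelial cadherin gene CDH1 was lower, at 0.471 ± 0.0428 CPM in ZFmut libraries and 2.91 ± 0.411 CPM in WT libraries. The endothelial marker PECAM1 was higher, at 1.37 ± 0.109 CPM in ZFmut libraries and 0.303 ± 0.129 CPM in WT libraries. GFAP was also higher, at 0.893 ± 0.321 CPM in ZFmut libraries and 0.476 ± 0.112 CPM in WT libraries. The part of these shifts in the results below was not tested.

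The start regions of LIPH and LPAR3 are shown because these genes had the largest difference in each direction among the 8 that were fitted. Each line gives the 250 bases before the RefSeq start site on GRCh38.p14, 5′ to 3′ on the minus strand, on which all 10 genes lie (49.4% of tested genes lie there). Capitals mark matches, on either strand, to 4 short motifs, namely GACCACC (a core of the sequence bound by ZBTB7 proteins in vitro), GGGCGG (the GC box), TGANTCA (the AP-1 site) and TATAAA (the TATA box).
LIPH, chr3:185552589-185552838: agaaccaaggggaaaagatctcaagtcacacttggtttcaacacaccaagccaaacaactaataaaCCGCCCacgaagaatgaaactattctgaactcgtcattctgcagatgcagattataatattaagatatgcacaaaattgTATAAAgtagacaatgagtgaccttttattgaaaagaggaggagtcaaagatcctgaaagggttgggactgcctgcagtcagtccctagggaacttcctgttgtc
LPAR3, chr1:84893207-84893456: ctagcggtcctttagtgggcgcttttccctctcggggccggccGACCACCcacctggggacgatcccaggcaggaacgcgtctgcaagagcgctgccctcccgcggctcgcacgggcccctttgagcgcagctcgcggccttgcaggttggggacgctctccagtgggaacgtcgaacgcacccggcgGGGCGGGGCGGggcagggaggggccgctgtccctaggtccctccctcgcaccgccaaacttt
The capitals in LIPH are a reversed GC box from 184 to 179 bases and a TATA box from 105 to 100 bases before the start. Those in LPAR3 are GACCACC from 207 to 201 bases before the start and a pair of GC boxes that share a base, from 62 to 52 bases before it.

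RefSeq windows of 300 bases (250 before and 50 after a start) were used for 8 of the 10 genes, with 13 windows in all, 6 of them from alternative starts of LPAR1. GACCACC was in a window of 1 of these 8 genes, LPAR3, and in 2.98% of 35116 windows of all genes. The GC box was in windows of 4 genes (45% of all windows), the TATA box in windows of LIPH and LPAR1 (11.5%), and the AP-1 letters in that of LPAR2 (7.71%). A gene counted if any of its windows matched, 6 in the case of LPAR1, while the percentages are per single window. The LIPH window was poor in G and C, at 43.0% with 4 CpG dinucleotides, against 71.3% with 33 in LPAR3, 77.7% with 37 in LPAR2 and 74.7% with 39 in PLPP2. The median over all windows was 58.7% with 14. A match describes letters in this window, not a bound site. PLPP1 had no window in the source used. Chromosome 8, where ENPP2 lies, was left out when windows of the 10 genes were taken, so ENPP2 was not examined.

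**Figure D1:**
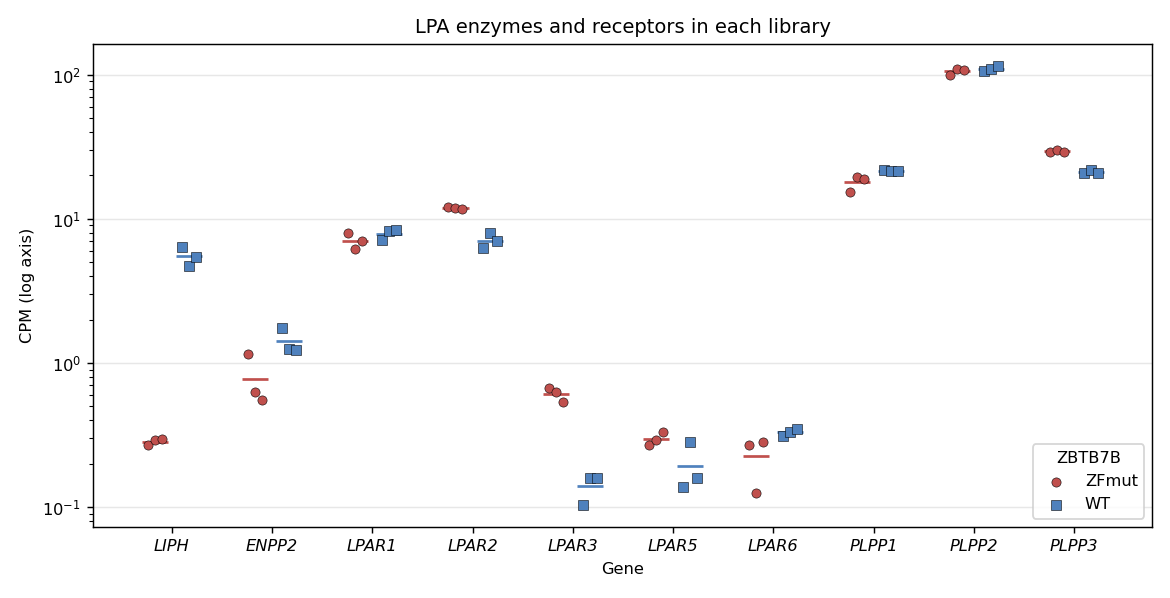
Each point is 1 library, on a log axis of CPM, and bars are group means (3 ZFmut circles to the left of 3 WT squares for each gene). LIPH lies at 0.268 to 0.295 CPM in ZFmut libraries and at 4.73 to 6.36 CPM in WT libraries, the widest gap among the 10 genes, while LPAR1, LPAR5 and PLPP2 overlap between groups.

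LIPH had the largest difference of the 10 genes and stood 18.6-fold lower in ZFmut libraries. LIPH (ENSG00000163898.9, GRCh38 chromosome 3, 185506262 to 185552613, minus strand) encodes the membrane-associated phospholipase A1 that makes LPA from phosphatidic acid. It had 6, 7 and 30 reads in ZFmut replicates 1 to 3, or 0.268, 0.292 and 0.295 CPM, against 184, 269 and 171 reads in WT replicates 1 to 3, or 6.36, 4.73 and 5.41 CPM. All ZFmut libraries lay far below all WT libraries, and ZFmut replicate 3, with over 4 times the reads of the other ZFmut libraries, gave nearly the same CPM as they did. The means were 0.285 ± 0.0148 CPM in ZFmut libraries and 5.50 ± 0.814 CPM in WT libraries (SD, n = 3 each), a log2 difference of -4.22 ± 0.20 (SE of the edgeR fit). From 43 reads in ZFmut libraries and 624 in WT libraries the ratio was 0.0555, with a 95% exact binomial interval of 0.0397 to 0.0756 that covers counting error only. LIPH was chosen for this difference, so it is given as a description without a test. Its exons overlap no other annotated gene, and its log2 difference ran from -4.33 to -4.10 over 14 alternative fits, including each that left out a library.

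ENPP2 (ENSG00000136960.12, chromosome 8), the autotaxin gene, had few reads as well and was lower in ZFmut libraries. It had 1.16, 0.626 and 0.550 CPM in ZFmut replicates 1 to 3, against 1.76, 1.25 and 1.23 CPM in WT replicates 1 to 3. The groups did not overlap, but ZFmut replicate 1 lay close to the lowest WT libraries, and the ZFmut coefficient of variation was 42.7%, against 21.2% in WT. It was 2.01-fold lower, with an SE of 0.27 on the log2 scale, at 97 reads in ZFmut libraries and 161 in WT libraries. The log2 difference was -0.65 without ZFmut replicate 3, -1.27 without ZFmut replicate 1, and -0.68 after all libraries were thinned to the smallest total, and the edgeR call (Benjamini-Hochberg adjusted p under 0.05) ended in the first and last of these.

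Both producing enzymes together gave 0.185 ± 0.0458 CPM per kb of exon in ZFmut libraries and 1.54 ± 0.238 CPM per kb in WT libraries (sum of LIPH and ENPP2, SD, n = 3 each). LIPH made up 27.4, 43.2 and 46.7% of that sum in ZFmut replicates 1 to 3, against 85.5, 86.1 and 87.7% in WT replicates 1 to 3. ENPP2 was thus the larger contributor in every ZFmut library and LIPH in every WT library, although ENPP2 changes with the exon length assumed (0.163 CPM per kb over 6 libraries with merged exons, 0.335 with the longest coding transcript).

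**Figure D2:**
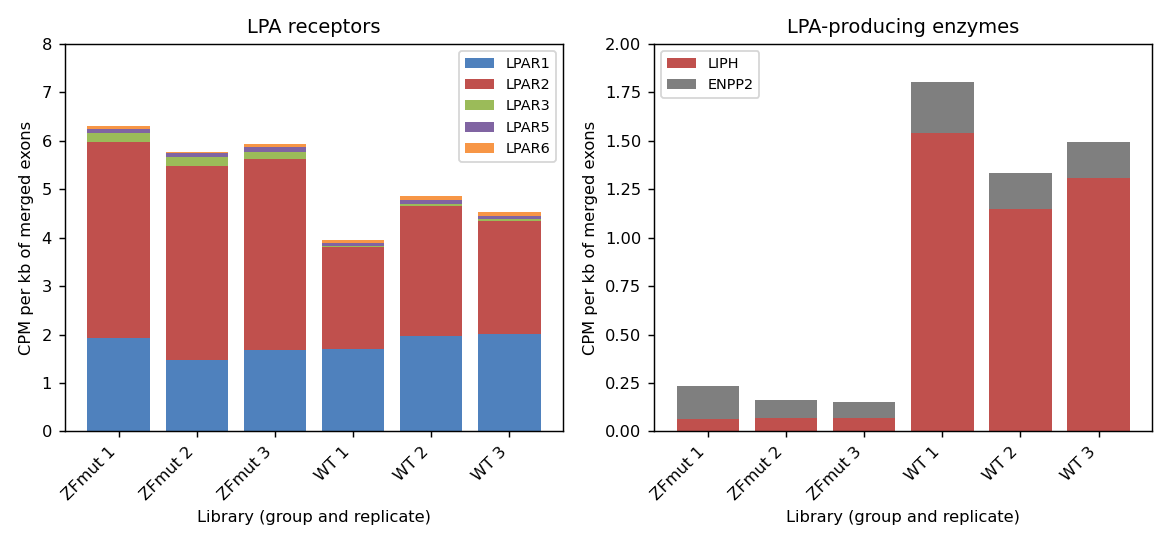
Stacked bars give CPM per kb of merged exon length in each library, ZFmut libraries left of WT libraries, for the 5 LPA receptors and for the 2 producing enzymes. LPAR2 and LPAR1 make up nearly all receptor transcript, with a larger LPAR2 part in ZFmut libraries, and the LIPH part falls below the ENPP2 part in ZFmut libraries.

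Among the receptors, LPAR2 and LPAR3 were higher in ZFmut libraries and LPAR1 was not separated between groups. LPAR2 (ENSG00000064547.13, chromosome 19, 19623668 to 19628930, minus strand), which couples to Gi, Gq and G12/13, had 12.1, 11.9 and 11.7 CPM in ZFmut replicates 1 to 3, against 6.29, 7.95 and 6.96 CPM in WT replicates 1 to 3. The ZFmut libraries were close to each other, with a coefficient of variation of 1.57%, and all lay above the highest WT library. The log2 difference was 0.73 ± 0.09 (SE), or 1.66-fold.

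LPAR3 (ENSG00000171517.5, chromosome 1, 84811602 to 84893213, minus strand), a receptor that prefers unsaturated LPA, had 15, 15 and 55 reads in ZFmut replicates 1 to 3, against 3, 9 and 5 reads in WT replicates 1 to 3. In CPM these were 0.669, 0.626 and 0.540 in ZFmut libraries and 0.104, 0.158 and 0.158 in WT libraries, with no overlap. LPAR3 was 4.01-fold higher, with an SE of 0.35 on the log2 scale, and the ratio from 85 reads in ZFmut libraries and 17 in WT libraries was 4.02, with a 95% exact binomial interval of 2.37 to 7.23. Thinning to the smallest total brought the log2 difference to 1.55.

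LPAR1 (ENSG00000198121.13, chromosome 9, 110873263 to 111038458, minus strand), the receptor first linked to LPA in the developing brain, had 7.99, 6.18 and 7.04 CPM in ZFmut replicates 1 to 3, against 7.08, 8.24 and 8.36 CPM in WT replicates 1 to 3. The groups overlapped, with ZFmut replicate 1 above WT replicate 1, and the log2 difference was -0.17 ± 0.11 (SE). LPAR5 (ENSG00000184574.9, chromosome 12, 6618835 to 6636447, minus strand), with 6, 7 and 34 reads in ZFmut replicates 1 to 3 against 4, 16 and 5 in WT replicates 1 to 3, also overlapped, at 0.298 ± 0.0334 CPM in ZFmut libraries and 0.193 ± 0.0776 CPM in WT libraries (SD, n = 3 each). Its ratio of reads was 1.51 with a counting interval of 0.912 to 2.56.

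LPAR6 (ENSG00000139679.15, chromosome 13, 48389567 to 48444704, minus strand), the receptor paired with LIPH in hair growth, had 6, 3 and 29 reads in ZFmut replicates 1 to 3, against 9, 19 and 11 reads in WT replicates 1 to 3. In CPM this was 0.226 ± 0.0876 in ZFmut libraries and 0.331 ± 0.0189 in WT libraries (SD, n = 3 each), with every ZFmut library below every WT library, yet the counting interval of the ratio, 0.488 to 1.26, included equality. The gene lies inside RB1, a gene read at 59.9 ± 5.03 CPM in ZFmut libraries and 74.6 ± 3.59 CPM in WT libraries, and the library kit does not mark the strand. Reads of unspliced RB1 RNA could therefore fall on LPAR6, and their part in its count was not tested. For LPAR5 and LPAR6 a difference was not detectable at this depth.

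Per kb of merged exon, the 5 receptors summed to 6.31, 5.78 and 5.95 CPM in ZFmut replicates 1 to 3, against 3.95, 4.86 and 4.52 CPM in WT replicates 1 to 3. Every ZFmut sum lay above every WT sum. LPAR2 held 66.6 ± 2.49% of the sum in ZFmut libraries and 53.3 ± 1.62% in WT libraries (SD, n = 3 each). LPAR1 held 28.2 ± 2.39% in ZFmut libraries and 42.8 ± 1.86% in WT libraries, and LPAR3 2.87 ± 0.268% in ZFmut libraries and 0.883 ± 0.129% in WT libraries. LPAR2 was thus the most abundant LPA receptor transcript in all 6 libraries, at 2.11 to 4.06 CPM per kb, above LPAR1 at 1.48 to 2.01 CPM per kb.

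Of the degrading enzymes, PLPP3 was higher in ZFmut libraries, PLPP1 was lower by a small amount, and PLPP2, the most abundant of all 10 genes, did not separate the groups. PLPP3 (ENSG00000162407.8, chromosome 1, 56494747 to 56645301, minus strand), a membrane phosphatase that faces the outside of the cell, had 28.9, 29.9 and 29.3 CPM in ZFmut replicates 1 to 3, against 20.8, 21.8 and 20.7 CPM in WT replicates 1 to 3. The groups were far apart for their spread, and the log2 difference was 0.47 ± 0.06 (SE), or 1.39-fold. An annotated RNA gene on the same strand covers 10.9% of its exonic sequence.

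PLPP1 (ENSG00000067113.16, chromosome 5, 55424854 to 55535050, minus strand) had 15.4, 19.4 and 18.9 CPM in ZFmut replicates 1 to 3, against 21.8, 21.5 and 21.6 CPM in WT replicates 1 to 3. The WT libraries were almost equal, and the ZFmut libraries lay below them with a wider spread and with replicate 1 lowest. The log2 difference of -0.26 ± 0.08 (SE) was -0.16 without ZFmut replicate 1, and the edgeR call ended without that library and without any 1 of the 3 WT libraries. MTREX, on the other strand, covers 23.9% of the exonic sequence of PLPP1 and was read at 130.4 ± 4.77 CPM in ZFmut libraries and 126 ± 4.49 CPM in WT libraries, so the PLPP1 counts are less certain.

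PLPP2 (ENSG00000141934.9, chromosome 19, 281040 to 291504, minus strand) had 99.0, 110 and 107 CPM in ZFmut replicates 1 to 3, against 106, 110 and 115 CPM in WT replicates 1 to 3. The groups overlapped, with a log2 difference of -0.07 ± 0.06 (SE). Per kb of merged exon the 3 phosphatases summed to 29.4 ± 1.97 CPM in ZFmut libraries and 30.3 ± 0.601 CPM in WT libraries, so that the sum overlapped while PLPP3 held 19.0 ± 1.02% of it in ZFmut libraries and 13.1 ± 0.474% in WT libraries.

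**Figure D3:**
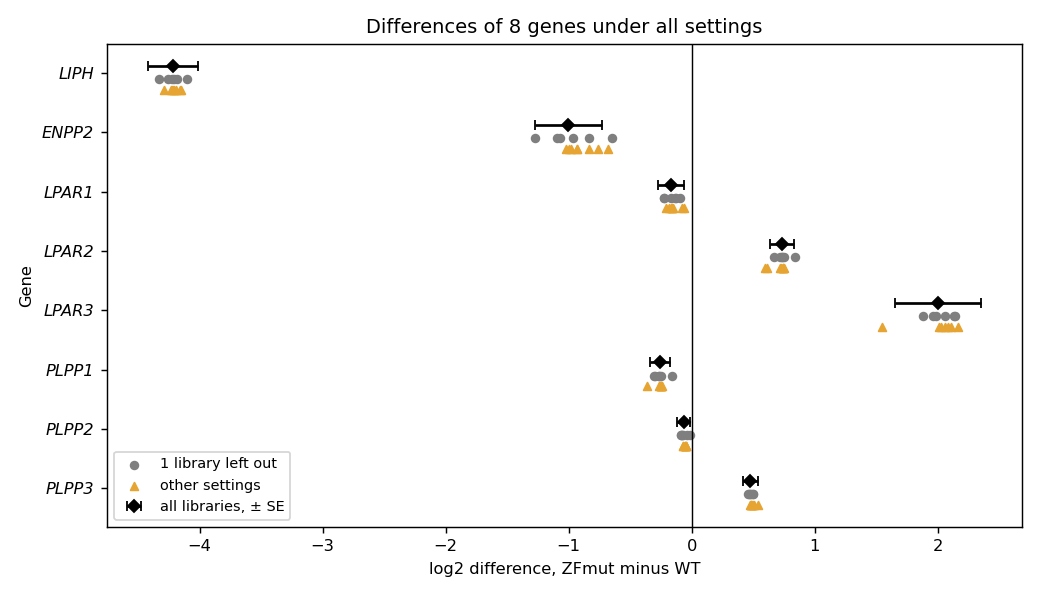
Diamonds with bars give the log2 difference, ZFmut minus WT, and its standard error for the 8 fitted genes, circles the fits without 1 library, and triangles the other alternative fits. LIPH stays between -4.33 and -4.10, ENPP2 spreads from -1.27 to -0.65, and no gene changes sign.

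Of the 8 fitted genes edgeR called 3 higher (LPAR2, LPAR3, PLPP3) and 3 lower (LIPH, ENPP2, PLPP1) in ZFmut libraries, where 35.6% of all tested genes were called (17.2% higher and 18.4% lower). The ranges of the same 6 did not overlap between groups, 3 higher and 3 lower, where 47.2% of all tested genes did not overlap (22.8% higher and 24.4% lower). Nothing is read from these counts, since the genes were chosen with this comparison known, LIPH for its difference, and LIPH and LPAR3 had very few reads in the group where they are low.

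By level per kb of merged exon the order over 6 libraries was PLPP2, PLPP1, PLPP3, LPAR2, LPAR1, LIPH, ENPP2, LPAR3, LPAR5 and LPAR6. PLPP2, at 14.0 to 16.3 CPM per kb, did not overlap PLPP1 at 7.64 to 10.8, nor PLPP1 PLPP3 at 3.91 to 5.66. Within each library PLPP3 also exceeded LPAR2, LPAR2 exceeded LPAR1 and LPAR1 exceeded LIPH, so the order down to LPAR1 was the same in all 6 libraries. Below LPAR1 the order by merged exon differed between groups, with LIPH under ENPP2 and ENPP2 under LPAR3 in all 3 ZFmut libraries and the reverse in all 3 WT libraries. LIPH stood 9th of the 10 in ZFmut libraries, at 0.0691 ± 0.00359 CPM per kb, and 6th in WT libraries, at 1.33 ± 0.198 CPM per kb. LPAR3 stood 6th in ZFmut libraries, at 0.173 ± 0.0186 CPM per kb, and 10th in WT libraries, at 0.0395 ± 0.00891 CPM per kb. PLPP2 came to 77.2 CPM per kb when the longest coding transcript was taken as its length, which is 1397 bases against 7059 of merged exon, and it stayed first. With that length the ZFmut means were 0.238 CPM per kb for ENPP2, 0.183 for LPAR3, 0.0752 for LPAR6 and 0.0707 for LIPH. ENPP2 then lay above LPAR3 and LPAR6 above LIPH, so the ZFmut places of LPAR3 and LIPH hold for merged exons only. The order of LPAR5 and LPAR6 over 6 libraries also reversed (0.0773 and 0.0927 CPM per kb).

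Genes near LIPH on chromosome 3 did not share its difference in size. Within 500 kb of the gene, 17 other genes are annotated and 9 were tested, and edgeR's quasi-likelihood test called 2 higher and 4 lower with ZFmut, where 17.2% of all tested genes were higher and 18.4% lower. SENP2, a SUMO protease gene 29.9 kb before the LIPH start, was lower at 59.7 ± 2.24 CPM in ZFmut libraries and 74.3 ± 3.63 CPM in WT libraries (log2 difference -0.31 ± 0.05 SE, edgeR adjusted p = 0.000454). TMEM41A, 7.21 kb beyond the LIPH end, and MAP3K13, 17.2 kb beyond it, had log2 differences of -0.15 and -0.21 and did not pass (edgeR adjusted p = 0.0983 and 0.0523), though TMEM41A passed without ZFmut replicate 2 and MAP3K13 without ZFmut replicate 1. These genes share 10.5% of the TMEM41A exons on opposite strands.

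IGF2BP2, an RNA-binding protein gene 91.1 kb before the start, was lower at -0.15 ± 0.05 (SE, edgeR adjusted p = 0.0265), and EHHADH, a peroxisomal enzyme gene 224 kb beyond the end, was higher at 0.24 ± 0.08 (SE, edgeR adjusted p = 0.0312). Both calls ended when any of the 3 WT libraries or ZFmut replicate 3 was left out, that of EHHADH also without ZFmut replicate 2 and after thinning, and that of IGF2BP2 also with no filter. The largest difference in the window was that of C3orf70, 353 kb away and named after its value was seen, at -0.67 ± 0.07 (SE, edgeR adjusted p = 8.78e-06). Leaving out WT replicate 3 gave 0 higher genes, and leaving out any other library except ZFmut replicate 1 gave 1.

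**Figure D4:**
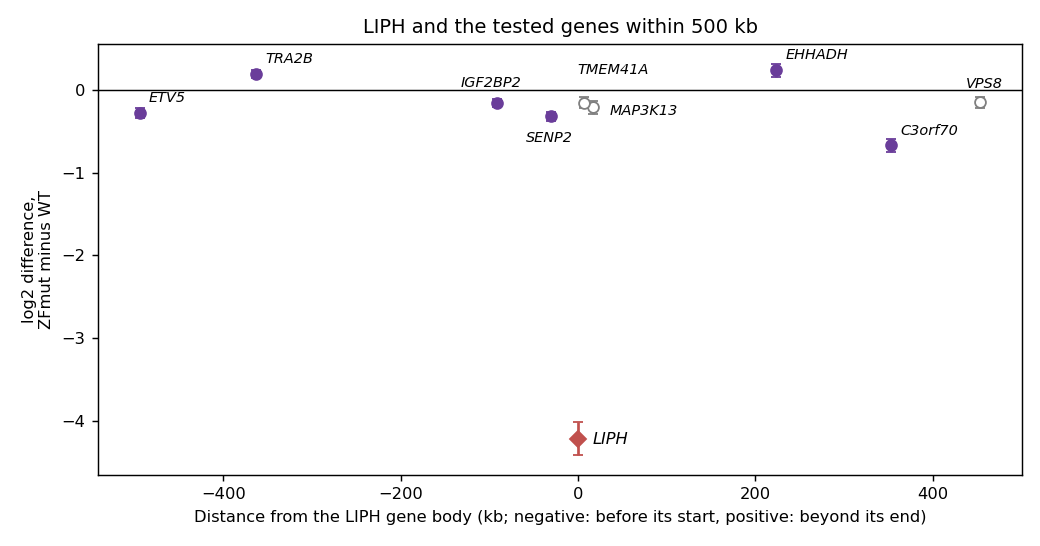
Log2 differences, ZFmut minus WT, with standard errors are plotted against distance in kb from the LIPH gene body, with filled points for genes past an edgeR adjusted p of 0.05. LIPH lies at -4.22 and the 9 other tested genes between -0.67 and 0.24.

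The genes whose log2 CPM followed LIPH most closely over the 6 libraries, among 13333 protein-coding genes of at least 1 CPM, were IGFBP3, PHF20, PIK3AP1, BCO2 and MYO1D, with Pearson correlations of 0.9992 to 0.9994. IGFBP3, which binds insulin-like growth factors, averaged 28.3 CPM in ZFmut libraries and 100.8 CPM in WT libraries, and PHF20 64.3 CPM in ZFmut libraries and 77.9 CPM in WT libraries. The libraries share the group contrast, and 1216 genes had a correlation above 0.95, so the likeness is a description.

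Other genes of LPA metabolism and signalling, listed by function with earlier results of these data known, were tested in the same fit. Of 78 listed genes 62 were tested, and 15 were higher and 18 lower with ZFmut (53.2%, against 35.6% of all tested genes), with a median log2 difference of -0.0105 beside -0.0041 for all tested genes. Without WT replicate 3 the lower count was 10. After correction for GC content and exon length 33 genes were called, 25 of which are among the 33 called without it.

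LPAR4 and P2RY10, other receptors of LPA or related lipids, had 0 reads in all libraries.

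Of 9 other enzymes that can yield LPA, 5 were tested, 2 were lower and 0 higher with ZFmut (40%, close to the 35.6% of all tested genes). GDPD1, a lysophospholipase D inside the cell, was lower at 2.44 ± 0.446 CPM in ZFmut libraries and 4.53 ± 0.424 CPM in WT libraries (log2 difference -0.94 ± 0.15 SE, edgeR adjusted p = 0.000222). AGK, a mitochondrial kinase that phosphorylates monoacylglycerol, was lower at -0.25 ± 0.07 (SE, edgeR adjusted p = 0.00847), a call that ended without WT replicate 2, after GC and length correction (-0.13) and after thinning (-0.17). The relatives of LIPH closest in mechanism had almost no reads, with LIPI at 11 reads in ZFmut libraries and 11 in WT libraries, and PLA1A at 4 reads in ZFmut libraries and 5 in WT libraries.

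Enzymes that supply phosphatidic acid, the substrate of LIPH, were called in each direction. Of 10 tested, 5 were higher and 2 lower (70%, against 35.6% of all tested genes). DGKA, a diacylglycerol kinase, was higher at 17 ± 0.945 CPM in ZFmut libraries and 10.3 ± 0.703 CPM in WT libraries (log2 difference 0.73 ± 0.08 SE, edgeR adjusted p = 8.34e-06). PLD2, a phospholipase D, was higher by 0.51 ± 0.07 (SE, edgeR adjusted p = 6.36e-05), DGKZ by 0.43 ± 0.07 (0.000282) and DGKG by 0.40 ± 0.09 (0.00232). Only 1 gene was lower when WT replicate 3, ZFmut replicate 2 or ZFmut replicate 3 was left out, and also 1 after GC and length correction or thinning.

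Enzymes that build LPA inside the cell or acylate it further included 2 higher and 1 lower of 9 tested (33.3%, close to the 35.6% of all tested genes). GPAM, which makes LPA from glycerol 3-phosphate in mitochondria, was higher by 0.33 ± 0.06 (SE, edgeR adjusted p = 0.000734), GPAT3 by 0.23 ± 0.07 (0.0206), and AGPAT4, which turns LPA into phosphatidic acid, was lower at -0.27 ± 0.06 (0.00230). The call of GPAT3 ended, leaving 1 higher gene, when WT replicate 2 or 3 or ZFmut replicate 3 was left out. It also ended after thinning (0.26), where the list still had 2 higher genes. Offsets for GC and length gave 2 lower genes, and with the replicate block as well 4 higher and 2 lower.

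Relatives of the phosphatases had 5 higher and 2 lower members of 8 tested (87.5%, against 35.6% of all tested genes). PLPPR3, a neuronal relative without known phosphatase activity, was higher at 16.2 ± 0.961 CPM in ZFmut libraries and 5.11 ± 0.927 CPM in WT libraries (log2 difference 1.65 ± 0.11 SE, edgeR adjusted p = 5.64e-08). PLPP7 was higher by 0.66 ± 0.10 (SE, edgeR adjusted p = 0.000167), PLPPR2 by 0.46 ± 0.08 (0.000601) and ACP6, a mitochondrial LPA phosphatase, by 0.41 ± 0.07 (0.000640). Leaving out WT replicate 2 or ZFmut replicate 2 brought the lower members to 1, and leaving out WT replicate 3 to 0.

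In the list for sphingosine 1-phosphate, 10 genes were tested, 2 higher and 4 lower (60%, against 35.6% of all tested genes). This lipid has receptors related to LPAR1, LPAR2 and LPAR3. SPHK1, which makes it, was lower at 70.1 ± 7.50 CPM in ZFmut libraries and 104 ± 6.78 CPM in WT libraries (log2 difference -0.57 ± 0.07 SE, edgeR adjusted p = 3.00e-05), and the lyase SGPL1 was lower at -0.31 ± 0.05 (0.000203). The receptor S1PR5 was higher by 0.61 ± 0.13 (SE, edgeR adjusted p = 0.00233) and SPHK2 by 0.30 ± 0.08 (0.00976), which ended without ZFmut replicate 3 and left 1 higher gene. Only 2 genes were lower when WT replicate 3 or ZFmut replicate 2 was left out. Other genes overlap 22.3% of the SPHK2 exons on the other strand.

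In the lipase family of LIPH, 3 of 6 genes found were tested and 1 passed (33.3%, close to the 35.6% of all tested genes). The gene that passed was LPL, the lipoprotein lipase gene. It was lower at 5.61 ± 0.0886 CPM in ZFmut libraries and 9.07 ± 0.438 CPM in WT libraries (log2 difference -0.70 ± 0.09 SE, edgeR adjusted p = 4.21e-05). LIPG, the endothelial lipase gene, was the most abundant at 107 ± 2.60 CPM in ZFmut libraries and 101 ± 4.57 CPM in WT libraries, and did not pass (edgeR adjusted p = 0.251).

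**Figure D5:**
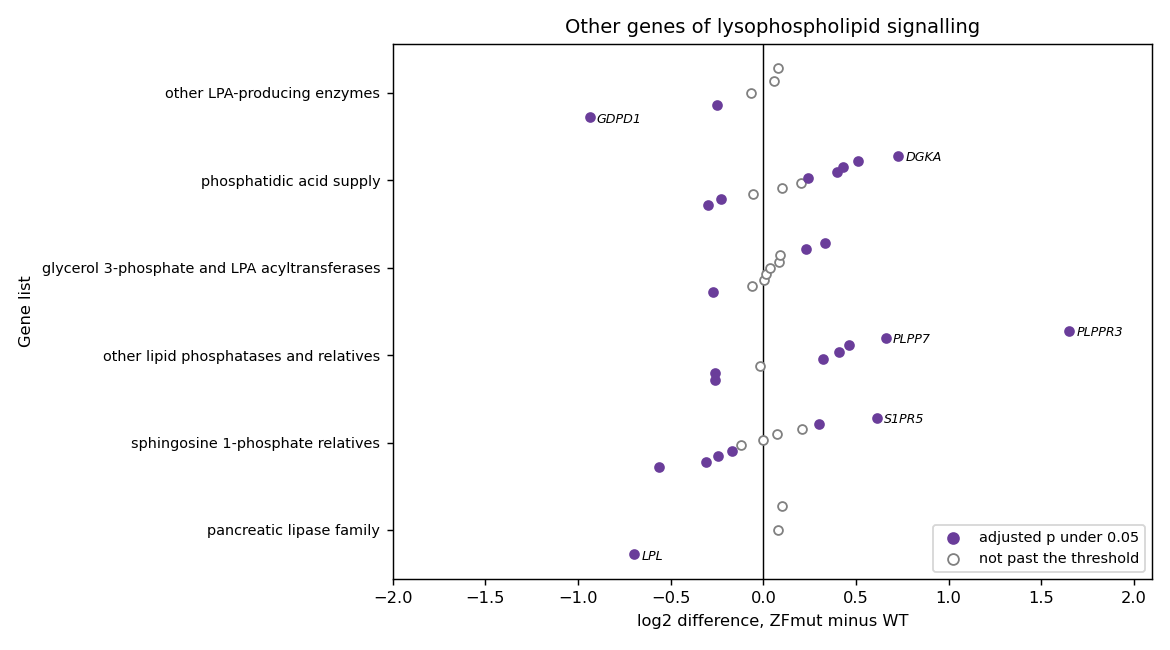
Each point is 1 of 45 tested genes in 6 of the lists, on an axis of log2 difference (ZFmut minus WT), and filled points passed an edgeR adjusted p of 0.05. PLPPR3 lies farthest from zero, at 1.65, followed by GDPD1 at -0.94.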

How the data were processed

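The deposited files hold raw counts of reads per Ensembl gene, whole numbers without normalisation. The tools named by the submitters' processing notes are TopHat2 2.0.9, HTSeq, cutadapt and DESeq2, with build GRCh38. The annotation release and its strand setting were not given in the sources used here. Summary lines that name no gene were left out; they held 7.71 to 8.08% ambiguous, 5.04 to 6.56% outside genes and 16.1 to 19.4% aligned to several places. Symbols, positions and exon lengths came from GENCODE release 29, which held 56996 identifiers (94.12%), and promoter sequences from RefSeq on GRCh38.p14. Libraries of a group differed by more than sampling noise (chi-square per degree of freedom 3.16 to 7.17 within groups).

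Differences, ZFmut minus WT, were fitted in R 4.3.3 with edgeR 4.0.16 (TMM, filterByExpr, two-sided quasi-likelihood F test, no covariates) over 18683 genes, with Benjamini-Hochberg adjustment over all of them and a threshold of 0.05. Alternatives were median-of-ratios factors, DESeq2 1.42.0, no filter, at least 1 CPM in 3 libraries, each library left out, the replicate number as a block, offsets for GC content and exon length (loess, span 0.5), these with the block, and thinning. A transcript length set by coding transcripts was added after seeing the data. The members and lists were chosen with earlier results of these data known, and the 10 LPA genes carry no p-value. Named genes are these 10, ZBTB7B, up to 4 called genes with the smallest p per list, other LPA receptors, protein-coding genes within 250 kb of LIPH and the 5 genes most like LIPH. The fit was tested on simulated data. Intervals cover counting error only. Some genes of the lists are counted in the totals but not reported here.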

Additional observations from a re-analysis of the deposited data

How the results depend on the processing

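Over all genes, 3207 were higher and 3442 lower with ZFmut, and every alternative kept each count within 1.5 times of these; without 1 library they ran from 2266 to 3934 and from 2504 to 3782. The log2 difference of LIPH ran from -4.33 to -4.10 without 1 library. The other LPA pathway genes called higher ran from 11 to 18 and those called lower from 10 to 19 without 1 library. Around LIPH the higher count ran from 0 to 2 and the lower count from 3 to 6 without 1 library, and thinning gave 1 higher gene. Same-numbered libraries of the groups were correlated at 0.162, 0.0737 and 0.0535 in their deviations from group means, under 0.1 in 2 of 3 pairs. Each library correlated best with the library of its own number in the other group. Whether same-numbered libraries were prepared together was not tested. With the replicate block 4226 genes were higher and 4466 lower, 7 around LIPH were lower, MAP3K13 (-0.21) and TMEM41A (-0.15) passed, and LIPH was at -4.22. The cause of these changes was not tested. LIPH with ZFmut rests on 43 reads, and LPAR5 and LPAR6 on 72 and 77 reads over all libraries.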
